A study of Mus musculus with 49 samples.

Results

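The livers of mice given acetaminophen (APAP, paracetamol) were compared between 1 h and 6 h after the dose, the interval in which a toxic dose of this drug begins to kill hepatocytes. The members are the 9 arrays whose titles place them at 1 h (5 arrays, replicates 1 to 5) or 6 h (4 arrays, replicates 1, 2, 4 and 5), out of 49 in the series, and the 8137 probe sets of 45101 that had a value on all 49 arrays. Both groups were livers of male C57BL6/N mice that had fasted overnight, received 300 mg/kg APAP into the peritoneum in warm saline and had food again afterwards. Time after the dose therefore also carries time since refeeding and time of day. The groups share the drug, and no vehicle group at either time was used here. Whether each array is a separate mouse is not said in the labels. All p-values rest on the variation between arrays of the same time, and some of that variation may be technical. The signal was hybridisation to Affymetrix Mouse Genome 430 2.0 probe sets, given as log2 expression values. All levels and differences are on that log2 scale, where 1 unit is a 2-fold change, and levels of different genes are not comparable with each other. Liver is a mixture of cells, and fewer cells of a type and less RNA per cell cannot be told apart in such samples.

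APAP is oxidised by cytochromes P450 in the hepatocytes around the central vein to a reactive quinone imine that is neutralised by glutathione. Once glutathione runs short, the metabolite binds proteins, the kinase JNK and its target Jun are activated, and mitochondria fail. Known transcript responses to such injury are immediate early genes and their feedback inhibitors, the stress regulators ATF4, HSF1, NRF2 and p53, chemokines, and loss of pericentral hepatocyte transcripts.

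Of the 5976 genes represented by 1 probe set each, 284 (4.75%) differed between 1 h and 6 h at a Benjamini-Hochberg adjusted p under 0.05 in limma, with 220 (3.68%) higher and 64 (1.07%) lower at 6 h. A change of at least 2-fold was seen in 94 of the higher and 16 of the lower genes. This fit drew its estimate of spread from all 44 arrays after APAP. The 9 arrays fitted alone gave 203 called genes (3.40%), of which 155 were called in both fits. All 6 h arrays lay above all 1 h arrays in 372 genes (6.22%) and below them in 134 (2.24%). The median difference over all genes was -0.01. An unadjusted p under 0.05 in this fit was reached by 1018 of the 5976 genes. Counts at that threshold in the lists below are to be read beside this share. The share of rises among the calls depended on the scaling of the arrays: 77.5% of calls were higher as deposited, 49.4% (220 higher, 225 lower) after a further quantile normalization, 61.8% (196 and 121) with arrays centred on their medians and 62.5% (190 and 114) with arrays centred on ribosomal protein genes.

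1 h replicate 3 stood apart from its group. Its values had an SD of 2.26 within the array, against 2.40 to 2.44 on the other 4 arrays of 1 h, and its mean correlation with its group was 0.979, against 0.989 to 0.991 for the others. Without it the fit called 246 genes, 139 higher and 107 lower, or 56.5% higher, against 77.5% with it. 6 h replicate 1 differed from the other 6 h arrays in stress genes and 227 genes were called without it. Without 6 h replicate 5, which had the lowest levels of several hepatocyte genes, 150 genes were called, 127 higher and 23 lower. Arrays of 1 h held all 45101 probe sets and those of 6 h only the first 8137 or 8138, so table completeness differed with the group. The defining hepatocyte transcripts that were measured, Apoa1 and Apoc3, summed to 14.69 to 14.82 at 1 h and 14.73 to 14.81 at 6 h. Apoa1, at 13.95 to 14.08, was at the top of the range, where the highest gene value was 14.08. Whether that range compresses its differences was not tested. Albumin and 7 other hepatocyte markers looked for were not among the probe sets used here.

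The largest rises were in regulators of transcription, secreted signals and cell shape. Klf6, a zinc finger transcription factor induced by tissue injury, read 4.17, 3.96, 3.51, 4.19 and 4.93 on the 1 h arrays and 9.90, 7.94, 8.46 and 8.42 on the 6 h arrays. The groups were separated by a gap wider than either group's range, and the difference was 4.53 ± 0.58 (SE; adjusted p = 1.37e-06), or 23.1-fold. Maff, a small bZIP protein that partners NRF2 and other factors, read 5.65, 5.94, 5.88, 6.62 and 7.10 at 1 h and 10.39, 10.27, 9.95 and 9.86 at 6 h. Its rise of 3.88 ± 0.37 (adjusted p = 2.66e-09) had the smallest adjusted p of the genes described here. Tnfrsf12a, the receptor for the cytokine TWEAK, had the tightest groups of the 12 largest rises, at 8.01, 7.91, 7.93, 8.12 and 8.20 at 1 h and 10.92, 10.53, 10.52 and 10.60 at 6 h. Its difference was 2.61 ± 0.31 (adjusted p = 5.56e-07). Rnd3, which loosens actin stress fibres, read 7.08, 7.37, 6.05, 7.20 and 7.04 at 1 h and 10.21, 9.67, 9.55 and 9.77 at 6 h, with 1 h replicate 3 the lowest. The rise was 2.85 ± 0.38 (adjusted p = 2.14e-06). All 12 largest rises were also called from the 9 arrays alone. Leaving out single arrays ended the calls of Ier3 (without 6 h replicate 5, lowest difference 2.80) and Cxcl1 (without 1 h replicate 3, 2.44, or without 6 h replicate 5).

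**Figure D1:**
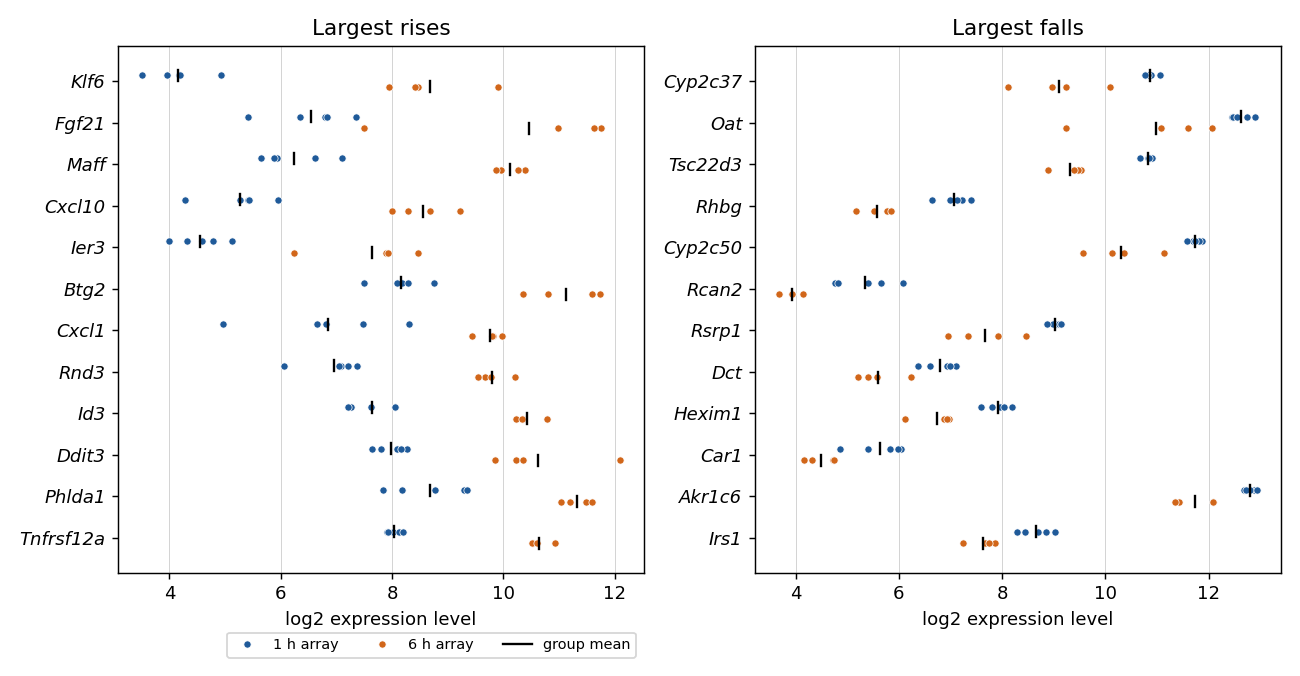
Log2 expression levels (x axis) of the 12 genes with the largest rises (left) and the 12 with the largest falls (right) among called genes whose groups did not overlap. Each blue point is 1 of 5 arrays of 1 h, each orange point 1 of 4 arrays of 6 h, and bars mark group means. Klf6 moved from a mean of 4.15 to 8.68, and Cyp2c37 from 10.86 to 9.10, while Fgf21 and Oat show 1 array of 6 h far from the other 3.

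Promoter windows were read from RefSeq (GRCm38.p6, 300 bases around each annotated start) for 11 of the 12 largest rises and 10 of the 12 largest falls. Windows of 4 of the rises are printed because each holds a motif of a stress or signal-responsive factor, in capitals. They were picked after the matches were seen, a match of letters is not evidence of binding, and only the 250 bases before the start are shown. Fgf21 lies on the minus strand at chr7:45615491-45615740 and holds the ATF4 composite motif (TGATGNAA, both strands searched), present in 2.52% of all 6071 windows, and an E-box (CACGTG, 8.83%). Ddit3, on the plus strand at chr10:127290543-127290792, holds an AP-1 motif (TGANTCA, 6.98%). Btg2, on the minus strand at chr1:134079156-134079405, and 1 of 3 annotated Maff starts, on the plus strand at chr15:79347270-79347519, hold a cyclic AMP response element (TGACGTCA, 2.57%).
Fgf21: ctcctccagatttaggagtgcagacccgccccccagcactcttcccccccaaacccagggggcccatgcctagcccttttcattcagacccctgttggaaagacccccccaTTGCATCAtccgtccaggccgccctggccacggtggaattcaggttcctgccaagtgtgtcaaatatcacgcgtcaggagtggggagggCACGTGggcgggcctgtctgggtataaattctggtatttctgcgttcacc
Ddit3: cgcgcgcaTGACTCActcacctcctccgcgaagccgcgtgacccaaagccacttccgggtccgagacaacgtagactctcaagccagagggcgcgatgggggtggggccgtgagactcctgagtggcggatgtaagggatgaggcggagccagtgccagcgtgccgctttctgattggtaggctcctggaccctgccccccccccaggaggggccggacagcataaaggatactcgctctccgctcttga
Btg2: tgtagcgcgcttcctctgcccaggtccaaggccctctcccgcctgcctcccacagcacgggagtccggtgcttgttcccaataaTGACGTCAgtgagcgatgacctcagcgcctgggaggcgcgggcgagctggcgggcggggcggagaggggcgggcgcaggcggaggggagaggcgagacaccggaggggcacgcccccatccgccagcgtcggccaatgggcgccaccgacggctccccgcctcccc
Maff: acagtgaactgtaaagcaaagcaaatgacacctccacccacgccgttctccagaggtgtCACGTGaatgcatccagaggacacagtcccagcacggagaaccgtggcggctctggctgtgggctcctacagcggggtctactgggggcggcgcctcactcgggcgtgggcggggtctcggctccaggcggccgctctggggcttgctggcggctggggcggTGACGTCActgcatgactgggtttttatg
Over the 11 rises, the cyclic AMP response element was found in 2, the AP-1 motif in 2, the antioxidant response element (TGACNNNGC, 13.8% of windows) in 4, the E-box in 3 and the ATF4 motif in 1. The heat shock element (GAANNTTC, 6.08%) was found in none of them. A gene was counted if any of its windows held the motif, and Maff has 3, while the percentages are shares of single windows.

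Immediate early genes, which respond to kinase signals without new protein synthesis, were the list with the highest median. Of 23 measured, 9 rose and none fell, beside 3.68% of all genes called higher, and the list's median difference was 1.13 beside -0.01 for all genes. On 14 of the 23, all 6 h arrays lay above all 1 h arrays, beside 6.22% of all genes. Jun, the AP-1 subunit that JNK phosphorylates, read 10.85, 10.93, 10.87, 11.34 and 10.78 at 1 h and 12.72, 12.03, 12.14 and 12.36 at 6 h, a rise of 1.36 ± 0.39 (adjusted p = 0.0306). Ccn1, a matrix-associated protein induced by injury, rose by 2.48 ± 0.49 (adjusted p = 0.000888), from 6.49 to 7.20 at 1 h to 9.16 to 9.78 at 6 h. Btg2, an antiproliferative factor that promotes mRNA deadenylation, stood at 8.18, 8.09, 7.49, 8.75 and 8.28 and then at 10.35, 10.80, 11.73 and 11.59. Ier3, a short-lived survival factor, moved from 3.99 to 5.12 at 1 h to 6.23 on 6 h replicate 1 and 7.90 to 8.47 on the other arrays of 6 h. The remaining called members were Klf6, Maff, Ier2, Ier5 and Sik1.

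The classical members Fos and Egr1 were not called in the 44-array fit. Fos, the other AP-1 subunit, read 9.79, 10.50, 10.66, 11.29 and 10.59 at 1 h and 12.32, 11.67, 11.66 and 11.50 at 6 h, beside 5.75 ± 0.59 (SD, n = 5) in controls. The difference between 6 h and 1 h was 1.22 ± 0.63 (adjusted p = 0.321). Egr1, a zinc finger factor of growth signals, read 11.08 to 12.00 at 1 h and 12.48 to 12.77 at 6 h, a difference of 0.97 ± 0.61 (adjusted p = 0.446). For both genes the groups did not overlap, and the fit of the 9 arrays alone called them (adjusted p = 0.023 and 0.00764). That fit called 14 members higher in all, and 4 were called in the 44-array fit without 1 h replicate 3 and 6 h replicate 5.

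Several phosphatases and other brakes on MAP kinase and cytokine signals rose beside these genes. Of 12 measured, 7 were called higher, beside 3.68% of all genes, and none lower, with a median difference of 0.77. Dusp6, a phosphatase that inactivates ERK, read 8.88, 9.19, 9.03, 9.46 and 9.55 at 1 h and 11.23, 11.46, 11.15 and 11.47 at 6 h, a rise of 2.10 ± 0.36 (adjusted p = 0.000125). Dusp8 and Dusp10, phosphatases that act on JNK and p38, rose by 2.25 ± 0.30 and 1.76 ± 0.26. Their levels went from 4.50 to 5.21 at 1 h to 6.76 to 7.43 at 6 h for Dusp8, and from 5.28 to 5.57 to 6.97 to 7.50 for Dusp10. Socs3, which blocks signalling from the interleukin-6 receptor, read 6.35 to 6.74 at 1 h, then 8.28, 9.31, 9.22 and 9.58. Phlda1 rose by 2.64 ± 0.46 (adjusted p = 0.000151), and the Sprouty genes Spry1 and Spry4 were called at 0.45 and 0.91. Errfi1, a brake on the EGF receptor, was at 12.89 at 1 h and 12.83 at 6 h and was not called.

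Genes of the ATF4 arm of the integrated stress response were split. Of 10 measured, 3 rose and none fell, beside 3.68% of all genes called higher, with a median of 0.24. Fgf21, a hormone released by liver under fasting and mitochondrial stress, read 5.41, 6.79, 6.35, 6.83 and 7.36 at 1 h. At 6 h it read 11.75, 10.98 and 11.63 on replicates 2, 4 and 5 but 7.50 on replicate 1, just above the highest 1 h array. The difference was 3.92 ± 0.58 (adjusted p = 1.22e-05, 15.2-fold), and it ranged from 3.49 to 4.91 with single arrays left out. The SD of Fgf21 at 6 h was 2.00, and the 9 arrays alone gave an adjusted p of 0.0123 in limma. Ddit3 (CHOP), a transcription factor of prolonged stress, showed the opposite order, at 12.09 on 6 h replicate 1 and 10.22, 10.35 and 9.85 on the others, from 7.64 to 8.26 at 1 h. Ddit3 rose by 2.64 ± 0.35 (adjusted p = 2.14e-06, and 0.00174 from the 9 arrays alone). Mthfd2, a mitochondrial folate enzyme, rose by 0.69 ± 0.17 on its brightest probe set, a call lost without 6 h replicate 2 (0.55), and by 2.30 on a second one. Other amino acid response genes were near their 1 h level and not called, among them the cystine transporter Slc7a11 (3.97 at 1 h and 4.17 at 6 h), Slc7a5 (5.81 and 6.09) and Stc2 (5.42 and 5.48). None of 14 chaperones and sensors of the endoplasmic reticulum was called by limma, with 2 at an unadjusted p under 0.05 and a median of 0.14, and none was called from the 9 arrays alone. Hspa5 (BiP), the main such chaperone, read 12.24 to 12.52 at 1 h and 13.21, 12.59, 12.59 and 12.54 at 6 h (adjusted p = 0.185).

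Cytosolic heat shock chaperones were called higher in 5 of 13, beside 3.68% of all genes, with a median of 0.54. 6 h replicate 1 was the highest array for each of them. Dnajb1, a co-chaperone of HSP70, read 8.96, 9.37, 9.84, 9.96 and 9.43 at 1 h and 12.83, 10.98, 11.19 and 10.25 at 6 h. The rise was 1.80 ± 0.34 (adjusted p = 0.000521, and 0.0356 from the 9 arrays alone). Bag3, which couples HSP70 to autophagy, read 8.15 to 8.84 at 1 h, 11.69 on 6 h replicate 1 and 8.90 to 9.38 on the other arrays of 6 h. Its rise of 1.19 ± 0.34 (adjusted p = 0.0303) shrank to 0.55 without that array and was not called, and the call was also lost without 1 h replicate 1 or 3. Hspb1, a small heat shock protein, overlapped between groups, since 6 h replicate 5 at 9.91 lay within the 1 h range of 8.75 to 10.19, and its call was lost without replicate 1 of 6 h, at 12.87 (difference then 1.14). Hspa4, an HSP110 family nucleotide exchange factor, was uniform, at 9.32 to 9.65 and then 10.04 to 10.37, with a rise of 0.57 ± 0.09 (adjusted p = 4.6e-05). Without 6 h replicate 1, 2 members were called, and 3 were called without 1 h replicate 1 or from the 9 arrays alone.

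NRF2 targets, the antioxidant genes released when reactive metabolites modify KEAP1, were mixed, with 3 of 16 higher, 1 lower and a median of 0.19. The shares of all genes called higher and lower were 3.68% and 1.07%. The 3 rises became 1 (Srxn1) without probe sets with a letter suffix such as _a_at, which those of Txnrd1 and Pgd carry. Txnrd1, thioredoxin reductase, read 9.56, 9.58, 9.32, 9.71 and 9.52 at 1 h and 11.03, 10.66, 10.60 and 10.52 at 6 h, a rise of 1.16 ± 0.16 (adjusted p = 6.82e-06). Pgd, an NADPH-producing enzyme of the pentose phosphate pathway, rose by 1.18 ± 0.22 (adjusted p = 0.000358), and Srxn1, which repairs peroxiredoxins, by 0.70 ± 0.16 (adjusted p = 0.0072). The call of Srxn1 was lost without 6 h replicate 1, where the difference was 0.49. Gclm, the modifier subunit that paces glutathione synthesis, was not called, at 10.16 to 10.83 at 1 h and 10.47 to 10.93 at 6 h. Nqo1, a quinone reductase, differed by 0.53 ± 0.26 (adjusted p = 0.281). Gsta3, a glutathione transferase, fell by 0.73 ± 0.21 (adjusted p = 0.0309), a call lost without any 1 of 6 single arrays. None of 8 genes of glutathione, cysteine and methionine metabolism was called by limma in either fit, with 1 at an unadjusted p under 0.05. Among metal genes, Slc30a1, which exports zinc, rose by 1.26 ± 0.21 (adjusted p = 6.28e-05), from 5.61 to 6.38 to 7.29 to 7.49. Mt1, a metallothionein, read 12.39 to 13.09 and then 13.52 to 13.67, and was called from the 9 arrays (adjusted p = 0.00243) but not in the larger fit (adjusted p = 0.407).

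Among 10 p53 targets, 4 rose and 1 fell, beside 3.68% and 1.07% of all genes, with a median of 0.66. The 4 rises became 1 without 1 h replicate 3 and 6 h replicate 5. They became 2 without probe sets with a letter suffix such as _a_at, which those of Mdm2 and Cdkn1a carry. Mdm2, the ligase that degrades p53, read 7.77, 7.97, 7.67, 8.19 and 8.24 at 1 h and 9.73, 9.41, 9.33 and 9.12 at 6 h, a rise of 1.43 ± 0.17 (adjusted p = 5.56e-07). Cdkn1a (p21), an inhibitor of cell division, rose by 1.75 ± 0.42 (adjusted p = 0.00879), from 7.40 to 8.89 to 9.24 to 10.08. Bbc3 (PUMA), which promotes mitochondrial cell death, rose by 0.78 ± 0.17 (adjusted p = 0.00359), with arrays at 5.73 to 5.96 and then 6.39 to 6.98. Btg2, described above, was the other called rise. Ccng1, cyclin G1, went the other way by -0.69 ± 0.19 (adjusted p = 0.0239), and leaving out any 1 of 5 arrays ended that call. In the Bcl2 family, Mcl1, a short-lived protector, rose by 0.92 ± 0.18 (adjusted p = 0.000944) on its brightest probe set, while a second one differed by 0.21 (adjusted p = 0.463). Of 13 measured members of the family, Mcl1 and Bbc3 were the ones called, both higher, beside 3.68% of all genes. Of 18 G1 cyclins and inhibitors, 2 rose and 1 (Ccng1) fell, beside 3.68% and 1.07% of all genes. Ccnl1, a cyclin of RNA processing, rose by 1.83 ± 0.32 beside Cdkn1a, while cyclin D1 (Ccnd1) differed by 0.71 (adjusted p = 0.461). None of 18 replication and mitosis genes was called by limma in either fit, with 1 at an unadjusted p under 0.05.

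Of 23 chemokines measured, 2 rose and none fell, beside 3.68% of all genes called higher, with a median of 0.09. The count was 1 without 1 h replicate 3 or without 6 h replicate 5. Cxcl1, which attracts neutrophils, read 8.31, 7.47, 4.96, 6.82 and 6.66 at 1 h and 9.82, 9.44, 9.79 and 9.97 at 6 h, a rise of 2.91 ± 0.74 (adjusted p = 0.0141). Cxcl10, which attracts T cells, read 5.41, 5.95, 4.28, 5.43 and 5.27 and then 9.22, 8.29, 8.00 and 8.69, a rise of 3.28 ± 0.68 (adjusted p = 0.00178). On both genes 1 h replicate 3 was the lowest array. Ccl2, a monocyte chemokine, was low at both times (4.87 and 5.41) and not called. None of 15 interferon-induced genes was called by limma in either fit, with 2 at an unadjusted p under 0.05 and a median of -0.06, although 2 were called higher without 6 h replicate 1. Of 22 genes of cytokine and NF-kappa B signalling, 8 rose and none fell, beside the same 3.68% of all genes, with a median of 0.50. Tnfrsf12a and Socs3, described above, were among them. Osmr, the oncostatin M receptor, rose by 1.84 ± 0.27 (adjusted p = 1.22e-05), from 4.57 to 5.49 to 6.55 to 7.13, although a second probe set differed by 0.39 (adjusted p = 0.121). Il4ra, the interleukin-4 receptor chain, rose by 1.07 ± 0.17 (adjusted p = 4.55e-05). The NF-kappa B subunits Rel and Rela were called at 0.98 and 0.55, the tumour necrosis factor receptor Tnfrsf1a at 0.52 and the adhesion molecule Selp at 0.83. Tnf itself was at 4.81 and 4.71. The count fell to 5 when 1 h replicate 1 or 6 h replicate 1, 2 or 5 was left out. Among 12 acute phase genes 2 rose, beside 3.68% of all genes, and the median of the list was 0.04. The endotoxin receptor Cd14 rose by 1.77 ± 0.42 and the iron hormone Hamp by 0.61 ± 0.18, while Saa1 stood at 11.15 and 11.01. Saa4, a constitutive serum amyloid A, read 11.06 to 11.60 at 1 h and 9.55 to 10.49 at 6 h, a difference of -1.12 ± 0.37 (adjusted p = 0.0772, and 0.00647 from the 9 arrays alone). Neither Cd14 nor Hamp was called without 6 h replicate 5, and the call of Hamp was lost without any of 7 single arrays.

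**Figure D2:**
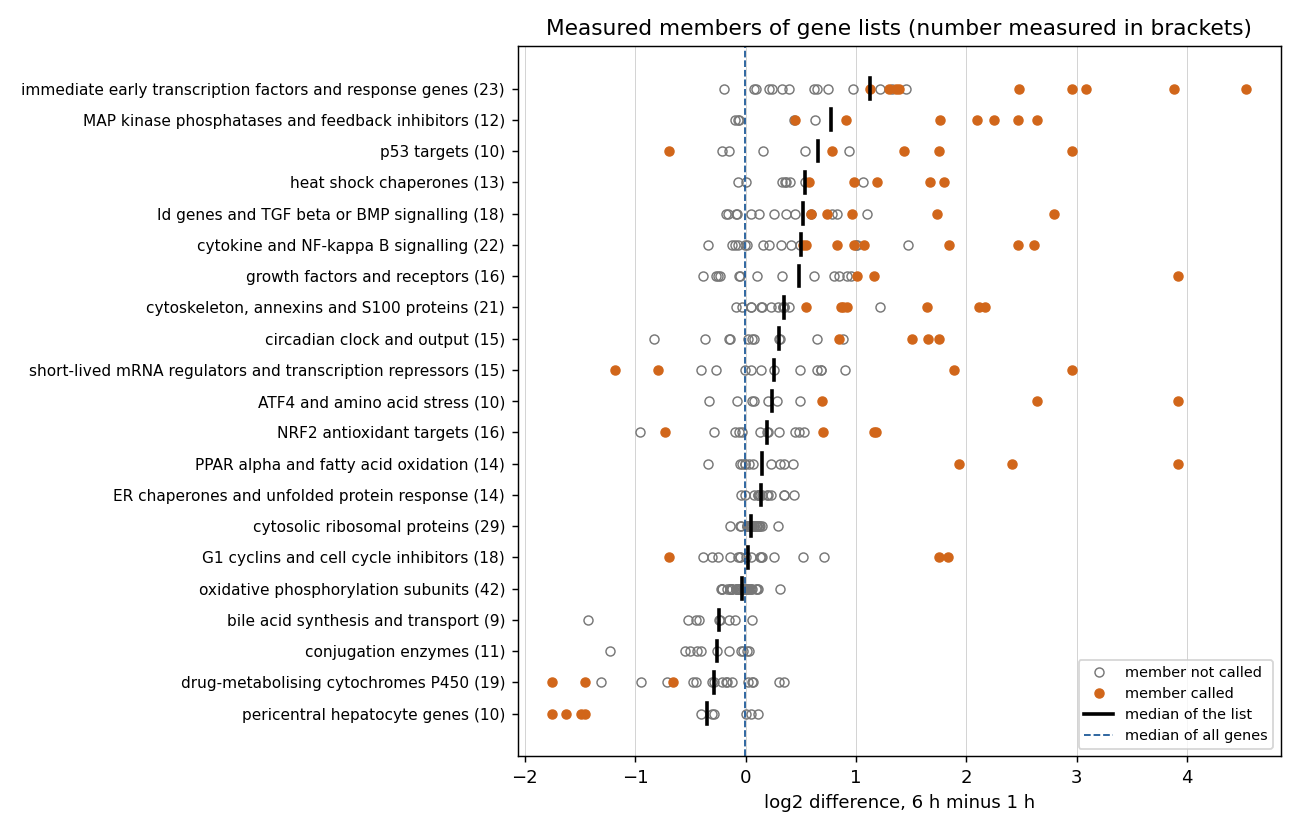
Log2 difference between 6 h and 1 h (x axis) of each measured member of 21 gene lists (rows, number measured in brackets). Filled orange points passed an adjusted p under 0.05 over all genes, open points did not, the black bar is the list's median and the dashed line the median of all genes. Medians ran from -0.35 for pericentral hepatocyte genes to 1.13 for immediate early genes, and members of the ribosomal and oxidative phosphorylation lists lay close to 0.

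In the list of cytoskeleton, annexin and S100 genes, 7 of 21 measured members rose, beside 3.68% of all genes, and none fell. The median was 0.35, and all 7 encode parts of the cytoskeleton or of its attachments. The count was 3 without 1 h replicate 3 and 6 h replicate 5, and 4 without probe sets with a letter suffix. Actg1, cytoplasmic gamma actin, read 10.77, 10.48, 10.39, 10.52 and 10.72 at 1 h and 12.80, 12.78, 12.49 and 12.91 at 6 h, a rise of 2.17 ± 0.28 (adjusted p = 1.7e-06). Tubb6, a beta tubulin, rose by 2.11 ± 0.39 (adjusted p = 0.000328), from 5.87 to 6.44 to 7.81 to 8.69. Krt8, the hepatocyte keratin, rose by 1.64 ± 0.22 (adjusted p = 2.42e-06) and by 1.64 on its second probe set. Both probe sets carry a letter suffix and had the same group means (10.28 and 11.92), so the second is not a separate reading. The focal adhesion genes Vcl and Zyx and the myosin Myh9 were called at 0.86, 0.88 and 0.92, and Actb at 0.55.

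Of 18 genes of the Id family and TGF beta or BMP signalling, 5 rose, beside 3.68% of all genes, and none fell. The median was 0.52. Id3, which blocks basic helix-loop-helix factors, read 7.26, 7.62, 7.20, 8.05 and 8.06 at 1 h and 10.79, 10.22, 10.36 and 10.33 at 6 h, a rise of 2.79 ± 0.36 (adjusted p = 1.37e-06). Tgif1, a repressor of SMAD targets, rose by 1.73 ± 0.26 (adjusted p = 1.6e-05) with groups at 6.55 to 6.97 and 8.36 to 8.72. Id2, Tgfbi and Skil were called at 0.96, 0.74 and 0.59. The count was 3 without 1 h replicate 3, 6 h replicate 2 or 6 h replicate 5. It was 2 without 1 h replicate 3 and 6 h replicate 5 together. Without probe sets with a letter suffix, such as those of Tgif1 and Id2, it was also 2. Of 15 clock genes 4 rose, beside the same 3.68% of all genes. They were Nfil3 by 1.75 ± 0.33, Wee1 by 1.65 ± 0.23, Bhlhe40 by 1.51 ± 0.42 and Rora by 0.85 ± 0.16. The call of Bhlhe40 was lost without any of 5 single arrays. Dbp, a strongly rhythmic output gene of the liver clock, had a difference of 0.02 ± 0.71 with 6 h arrays spread from 6.71 to 8.98.

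In the values as deposited, falls were fewer and smaller than rises, and several were in genes of hepatocyte metabolism. Their number depended on the scaling and on 1 h replicate 3: quantile normalization gave 225 lower and 220 higher genes. Of 10 pericentral genes measured, 4 fell and none rose, beside 1.07% of all genes called lower, with a median of -0.35. Cyp2c37, a cytochrome P450 of the central vein zone, read 11.05, 10.76, 10.88, 10.83 and 10.76 at 1 h and 10.09, 9.23, 8.97 and 8.12 at 6 h. The 1 h arrays were tight and the 6 h arrays wide, with replicate 5 the lowest, and the difference was -1.75 ± 0.41 (adjusted p = 0.0074). Oat, ornithine aminotransferase, which marks the last layers of cells around the central vein, read 12.46 to 12.90 at 1 h and 12.06, 11.07, 11.60 and 9.23 at 6 h. Its difference of -1.63 ± 0.36 (adjusted p = 0.00333) shrank to -1.05 without 6 h replicate 5 and was not called, and it was not called from the 9 arrays alone (adjusted p = 0.0755). Rhbg, an ammonium transporter of the same cells, was steadier, at 6.64 to 7.39 at 1 h and then 5.78, 5.52, 5.85 and 5.17, a difference of -1.49 ± 0.22 (adjusted p = 1.51e-05). Cyp2c50 fell by 1.45 ± 0.34 (adjusted p = 0.00767), from 11.58 to 11.88 to 9.56 to 11.13. Without 6 h replicate 5, the calls of Cyp2c37 (-1.43) and Cyp2c50 (-1.20) were lost as well and Rhbg was the 1 pericentral gene called. The Wnt targets Axin2 and Nkd1 were dim, at 3.35 and 4.34 at 1 h, and were not called.

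Cyp2e1 and Cyp3a11, enzymes that activate APAP, were not called. Cyp2e1 read 13.72, 13.66, 13.77, 13.80 and 13.68 at 1 h and 13.62, 13.47, 13.50 and 13.10 at 6 h, all lower than at 1 h, with a difference of -0.30 ± 0.12 (adjusted p = 0.153). Cyp3a11 had a difference of -0.45 ± 0.20 (adjusted p = 0.236), also with no overlap. Both are near the top of the range, where the highest gene value was 14.08, and whether that range compresses their differences was not tested. Of 19 measured P450 genes, 3 fell (Cyp2c37, Cyp2c50 and Cyp2c39), beside 1.07% of all genes, and none rose, with a median of -0.29. Cyp2c29 missed the threshold at -1.31 ± 0.41 (adjusted p = 0.0533). The Cyp2c genes are close paralogs, and probes for 1 may read another, although the probe sets used here carry no cross-hybridisation mark in their names. Without 6 h replicate 5 no P450 gene was called lower, and without 6 h replicate 1 there were 5. No conjugation enzyme of 11 and no bile acid gene of 9 was called by limma in either fit. At an unadjusted p under 0.05 there were 4 of each, beside 1018 of all 5976 genes, and their medians were -0.26 and -0.24. These counts were not stable. With array weights, which called 398 genes lower in all, 4 of each list were called lower. After quantile normalization, with 225 lower in all, 2 of each were. Cyp7a1, which sets the rate of bile acid synthesis, read 6.72 to 7.99 at 1 h and 6.89, 5.44, 7.56 and 3.77 at 6 h, with overlap between the groups and a difference of -1.43 ± 0.68 that was not called (adjusted p = 0.268).

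The promoter windows of Cyp2c37 (plus strand, chr19:39992174-39992423) and Cyp2c50 (plus strand, chr19:40089429-40089678) are printed because both genes fell and each holds the heat shock element letters GAANNTTC (capitals), the only matches to it among the 10 falls with a window.
Cyp2c37: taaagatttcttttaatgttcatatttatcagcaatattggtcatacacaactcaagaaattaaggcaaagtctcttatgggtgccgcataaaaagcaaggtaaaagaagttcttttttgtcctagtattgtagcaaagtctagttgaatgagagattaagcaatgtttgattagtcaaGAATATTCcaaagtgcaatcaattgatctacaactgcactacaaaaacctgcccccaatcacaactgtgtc
Cyp2c50: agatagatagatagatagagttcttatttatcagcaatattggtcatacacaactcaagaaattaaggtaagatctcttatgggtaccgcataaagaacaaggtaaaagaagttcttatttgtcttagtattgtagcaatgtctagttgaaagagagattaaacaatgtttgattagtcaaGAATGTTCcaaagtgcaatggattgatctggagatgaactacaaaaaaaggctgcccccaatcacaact
The stretch around the motif is nearly the same in both windows, so they do not count as separate matches. This motif is also in 6.08% of all windows.

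Other falls were in transcripts with different roles. Tsc22d3 (GILZ), a glucocorticoid-induced leucine zipper protein, read 10.67, 10.86, 10.82, 10.91 and 10.85 at 1 h and 9.53, 9.47, 9.39 and 8.89 at 6 h. The groups were tight and far apart, with a difference of -1.50 ± 0.29 (adjusted p = 0.000617). Of 13 glucocorticoid-responsive genes measured it was the 1 called lower, beside 1.07% of all genes. Sgk1, a kinase of ion transport, was the 1 called higher, beside 3.68% of all genes, and rose by 1.83 ± 0.26 (adjusted p = 7.04e-06). Fkbp5 stood at 10.29 and 10.33. Hexim1, which holds the elongation kinase P-TEFb inactive, read 7.80, 7.95, 7.59, 8.19 and 8.04 and then 6.12, 6.88, 6.98 and 6.94, a difference of -1.18 ± 0.19 (adjusted p = 4.51e-05). Tob1, an antiproliferative relative of Btg2, fell by 0.79 ± 0.21 (adjusted p = 0.0168), a call lost without 6 h replicate 5. Zfp36l1, which destabilises AU-rich mRNAs, rose by 1.89 ± 0.40 (adjusted p = 0.00241) in the same list of short-lived regulators. In that list 2 of 15 rose and 2 fell, beside 3.68% and 1.07% of all genes. Irs1, the insulin receptor substrate, fell by 1.02 ± 0.26 (adjusted p = 0.0115), from 8.28 to 9.03 to 7.25 to 7.87, and was not called without 6 h replicate 5. Of the other gluconeogenesis and insulin genes, G6pc (-0.61 ± 0.45) and Pck1 (-0.26 ± 0.25) were not called. Pdk4, which holds back glucose oxidation, and Acot2, a mitochondrial thioesterase, rose by 1.93 ± 0.55 (a call lost without any of 6 single arrays) and 2.41 ± 0.50, while other PPAR alpha targets such as Cpt2 (10.72 and 10.71) and Acadm (12.26 and 12.33) were not called. Hsd3b5, a steroid dehydrogenase of male liver, had the largest difference of the lower genes, -2.27 ± 0.70 (adjusted p = 0.0494), but its groups overlapped and 6 single arrays each ended the call. Akr1c6, a hydroxysteroid dehydrogenase, passed by the same margin, and leaving out any of the 9 arrays ended its call. The remaining large falls were Rcan2 (-1.43 ± 0.22), Rsrp1 (-1.37 ± 0.26), Dct (-1.20 ± 0.29) and Car1 (-1.14 ± 0.21), of which Rcan2 and Car1 were dim at 6 h (3.92 and 4.49, where 25% of all gene values lay under 4.44).

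Several large groups showed small differences. Over 42 subunits of oxidative phosphorylation the differences ran from -0.22 to 0.31 with a median of -0.03. Over 29 ribosomal proteins the median was 0.05. No member of either list was called by limma in either fit, with 2 and 0 at an unadjusted p under 0.05. No proteasome subunit of 21, no fatty acid synthesis gene of 14, no cholesterol synthesis gene of 12 and no hepatocyte identity factor of 12 was called. At an unadjusted p under 0.05 these lists had 2, 0, 3 and 0, and the 9-array fit called none but Onecut1 (adjusted p = 0.0356). With array weights, 1 proteasome, 2 cholesterol synthesis and 1 hepatocyte identity gene were called lower, beside 398 of all 5976 genes. Hnf4a, the central hepatocyte factor, read 9.82 to 10.24 at 1 h and 9.95 to 10.35 at 6 h. Apoa4, a secreted apolipoprotein, was the 1 called gene of the 10 in the periportal list, beside 3.68% of all genes called higher. Its rise was 1.67 ± 0.30 (adjusted p = 0.000224). The median SD of a gene between arrays was 0.22 at 1 h and 0.16 at 6 h, and 0.14 at 1 h without replicate 3.

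The 4 arrays of 6 h did not share 1 pattern. On 6 h replicate 1, Ddit3 (12.09), Dnajb1 (12.83) and Bag3 (11.69) were higher than on any other array of the pair of times. The spermidine acetyltransferase Sat1, at 12.18 beside at most 11.09, and the stress-induced regulator Ifrd1, at 12.33 beside 10.14 to 10.48, shared that order. The same array was the lowest of 6 h for Fgf21 (7.50), the lipid droplet protein Hilpda (5.95, beside 8.03 to 8.87) and the clock repressor Bhlhe40 (8.70, beside 9.96 to 10.04). On 6 h replicate 5, Oat (9.23), Cyp2c37 (8.12) and Cyp7a1 (3.77) were lowest. These genes were chosen after their values were seen. The labels give no difference between the 4 arrays.

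**Figure D3:**
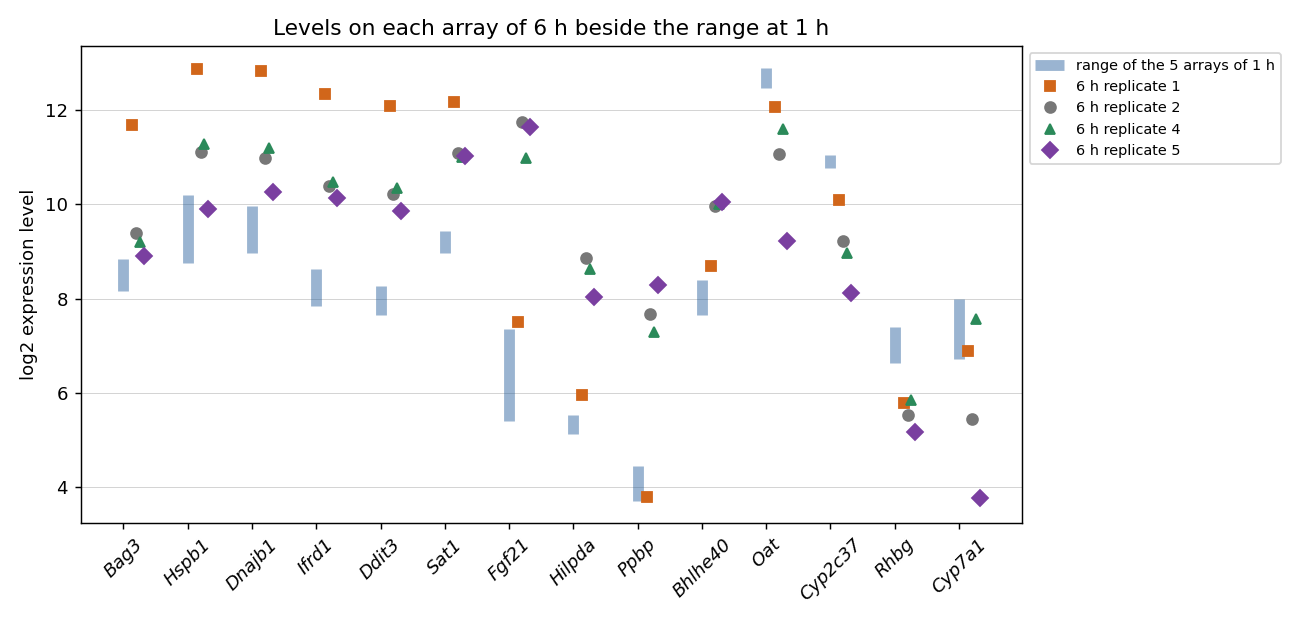
Log2 expression levels (y axis) of 14 genes on each array of 6 h (symbols by replicate number) beside the range of the 5 arrays of 1 h (blue bars). 6 h replicate 1 is the highest array for the first 6 genes, from Bag3 to Sat1, and the lowest of 6 h for Fgf21, Hilpda, Ppbp and Bhlhe40, while replicate 5 is the lowest for Oat, Cyp2c37, Rhbg and Cyp7a1.

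Markers of other cells were also read. Of 4 platelet markers 3 were called higher, beside 3.68% of all genes. Ppbp, the platelet basic protein, read 3.70 to 4.45 at 1 h and 7.68, 7.28 and 8.29 on 6 h replicates 2, 4 and 5 but 3.79 on replicate 1, a difference of 2.63 ± 0.62 (adjusted p = 0.0072). Gp1bb followed the same split, at 5.12, 4.35 and 5.15 against 3.68, and none of the 4 was called from the 9 arrays. The summed platelet markers were 7.45 to 7.62 at 1 h and 7.48 to 9.18 at 6 h. Of 9 neutrophil markers none was called by limma in the larger fit, with 1 at an unadjusted p under 0.05, and S100a8 was called from the 9 arrays (5.50 and 7.39, adjusted p = 0.0108). Defining neutrophil genes such as Elane, Mpo and Ngp read 4.28 to 5.48 on the 9 arrays, and the list summed to 8.04 to 8.55 and then 8.58 to 9.22. Among 5 stellate cell markers the receptor Pdgfra rose by 1.61 ± 0.27 (adjusted p = 9e-05) while Col1a1, Col1a2, Lrat and Pdgfrb were not called. Summed levels of monocyte markers were 10.35 to 10.76 at 1 h and 10.08 to 11.35 at 6 h, and those of sinusoidal endothelial cells 9.08 to 9.47 and 9.03 to 9.81. The part these cells had in the results above was not tested.

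Set beside the other times, the rises had several shapes, given here as group means without a test. In 135 of the 220 higher genes the mean of the controls lay between the means of 1 h and 6 h, in 82 it lay beyond 1 h, and in 25 of the 220 it was nearer to 6 h than to 1 h. Klf6 was as low in controls (4.24 ± 0.41, SD, n = 5) as at 1 h and stayed high at 12 h (9.09 ± 0.45). Maff also stayed high at 12 h (10.27 ± 0.45). Fgf21 stood at 6.05 ± 0.21 in controls and 5.83 ± 0.78 at 12 h, so that its high level was seen at 6 h alone among the 10 groups. Id3 and Phlda1 had a different course, with control means of 9.60 and 11.49 well above those of 1 h (7.64 and 8.69) and close to those of 6 h (10.43 and 11.32). Actg1 was also lower at 1 h (10.58) than in controls (11.40). Among the falls, Cyp2c37 was at 11.06 ± 0.36 in controls and declined further after 6 h to 8.22 at 12 h and 7.02 at 1 d. Hexim1 was highest at 1 h (7.92) of all groups and returned to 6.73 at 6 h, beside 6.96 in controls. Whether control mice fasted or received vehicle is not stated in the labels.

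**Figure D4:**
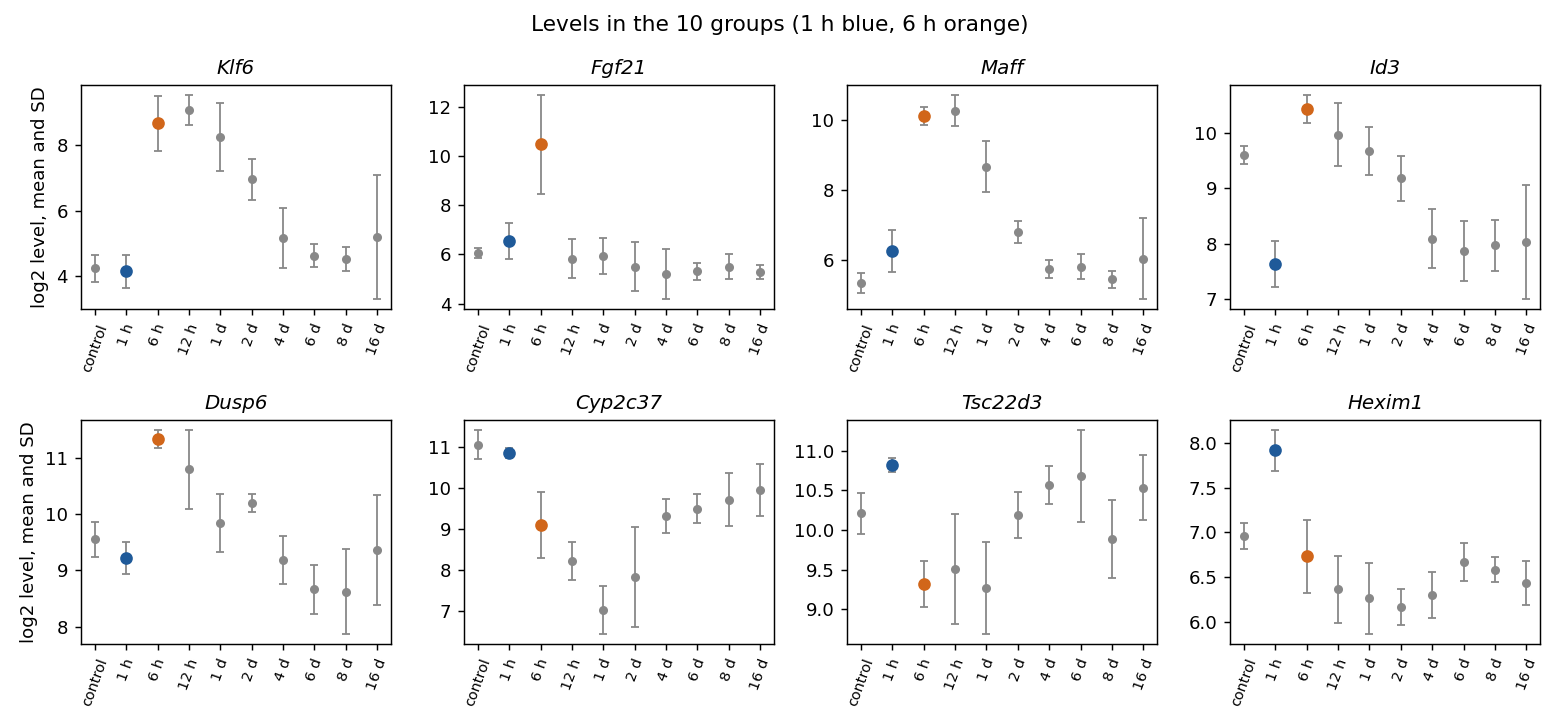
Group means of the log2 level with SD bars (y axis) for 8 genes in the 10 groups of the series (x axis, n = 5 arrays each, 4 at 6 h), with 1 h in blue and 6 h in orange. Fgf21 is high at 6 h alone, Klf6 and Maff remain high at 12 h, Id3 dips at 1 h below its control level, and Cyp2c37 goes on falling to 1 d.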

How the data were processed

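Biotin-labelled RNA of mouse liver was hybridised to Affymetrix Mouse Genome 430 2.0 arrays, per the labels' protocols. The deposited values are log2 expression, 1 per probe set and array, made by the authors with the oligo package (version 1.52.0) and RMA, per the submitters' processing notes. The sources used here do not say whether all arrays were normalized in 1 run. Of 8137 probe sets present on each of the 49 arrays, 7370 had 1 gene symbol in the platform annotation, 223 had several and 544 had none listed, and 7364 matched the RefSeq gene table by gene ID. Each of 5976 genes was read by whichever of its probe sets was brightest on average over the 49 arrays.

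Differences between 6 h and 1 h were tested with limma (version 3.58.1, R 4.3.3) in a fit of the 44 arrays after APAP in 9 time groups, so that all groups shared 1 estimate of spread. P-values were adjusted by Benjamini-Hochberg over all 5976 genes and called under 0.05. The procedure was tested on simulated data. Genes were named by a rule: the 12 largest rises and falls among called genes whose groups did not overlap, up to 4 called members of each of 42 gene lists (the brightest member where none was called), and a fixed panel. Genes outside it were chosen after their values were seen. The comparison, its members and the lists were chosen with earlier results of these data known. The number of arrays limits the precision, and arrays give no read depth. Promoter windows came from RefSeq (GRCm38.p6). Alternatives were another summary of probe sets, filters on dim genes or on probe sets with a letter suffix, and other variance settings. Others were the 9 arrays alone, all 49 arrays, other scalings, a replicate block and leaving out arrays.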

Additional observations from a re-analysis of the deposited data

Results flagged for a closer look

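In 20 of 204 groups of array values looked at, the highest or lowest array lay far from the others by Dixon's criterion. Chance flags about 5% of independent groups. These groups share the same 9 arrays and many of their genes were chosen by these values, so the count cannot be set against that rate. Of the 20 flagged groups, 10 were on 1 h replicate 3 and 9 on 6 h replicate 1.

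1 h replicate 3 was the lowest of its group for Rnd3 (6.05, others 7.04 to 7.37), Pgd (5.96, others 6.86 to 7.02), Slc30a1 (5.61, others 6.24 to 6.38) and Ccng1 (7.25, others 7.75 to 7.91). It was also lowest for Iigp1 (11.12), Pcna (8.92), Slc38a3 (11.32), Lamp2 (11.85) and Gclm (10.16), which were not called. The SD of its values within the array was 2.26, against 2.40 to 2.44 on the other arrays of 1 h.

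6 h replicate 1 was the highest of its group for Bag3 (11.69, others 8.90 to 9.38), Hspb8 (12.09, others 11.32 to 11.35), Srxn1 (7.86, others 6.94 to 7.10), Hspa5 (13.21, others 12.54 to 12.59) and Psma6 (10.85, others 10.64 to 10.67). It was the lowest for Hexim1 (6.12, others 6.88 to 6.98), Bhlhe40 (8.70, others 9.96 to 10.04), Ccnl1 (9.49, others 10.26 to 10.31) and Pck1 (12.49, others 12.66 to 12.68). Apoa4 was high on 1 h replicate 5 (12.32, others 10.67 to 11.14).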

How the results depend on the processing

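None of the 70 called genes named here changed direction under the alternatives run. Among named genes that were not called, Dbp (0.02, from -0.28 to 0.47 with single arrays left out), Psma6 (-0.02, from -0.09 to 0.02), Mgst1, Rps28, Cyp7b1 and Gclm changed sign under at least 1 alternative. The count of called genes was 284, with 220 higher and 64 lower and 110 changed at least 2-fold. Array weights gave 802 called (404 higher, 398 lower), quantile normalization 445 (225 lower), centring on medians 121 lower and centring on ribosomal protein genes 114 lower. The 9 arrays alone gave 38 lower, and, without 1 h replicate 3, an alternative chosen after seeing the data, 402 called (204 higher, 198 lower). Without 1 h replicate 3 and 6 h replicate 5 together, 129 were called (85 higher, 44 lower, 67 at least 2-fold). With single arrays left out, 150 to 301 genes were called, 127 to 241 higher, 23 to 107 lower and 81 to 115 at least 2-fold. Leaving out probe sets with a letter suffix in their names, such as _a_at, gave 196 calls among 4909 genes. Whether the replicate numbers pair the arrays was not settled. Deviations of same-numbered arrays correlated at 0.16, -0.03, 0.06 and 0.15, and those of other pairs at -0.16 to 0.16. With the replicate block 269 genes were called, 252 of them in common with the main fit. The causes of these shifts were not tested. Dim genes limit what can be seen, with 25% of gene values under 4.44.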

Other observations

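Some splicing factor genes, chosen after their values were seen and so given without a test of the group, were among the rises. Of 18 measured Srsf, Clk and Hnrnp genes, which encode splicing factors, their kinases and RNA-binding proteins, 5 were called higher and none lower, beside 3.68% of all genes called higher, with a median difference of 0.35. They were 3 of 6 Srsf, 1 of 2 Clk and 1 of 10 Hnrnp genes. Srsf5 read 10.45, 10.04, 9.35, 10.13 and 9.86 at 1 h and 11.09, 10.74, 10.79 and 10.86 at 6 h, a rise of 0.90 ± 0.23 (adjusted p = 0.0115). Srsf2 (0.71), Srsf3 (0.58), Clk4 (1.04) and Hnrnpc (0.63) were the others. 1 h replicate 3 was the lowest array for all 5 (for Clk4 at 7.06, others 7.07 to 7.83). The RNA-binding proteins Syncrip (1.66 ± 0.29) and Pspc1 (1.61 ± 0.32) and the helicase Ddx5 (0.84 ± 0.15) rose too. 1 h replicate 3 was again the lowest array for Syncrip (5.92, others 6.59 to 6.86) and Pspc1 (3.99, others 4.73 to 5.36). Ddx5 read 10.53 to 10.79 at 1 h and 11.35 to 11.81 at 6 h, with no overlap.

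Other large rises outside the gene lists were Ets2, a transcription factor downstream of Ras signalling (2.56 ± 0.36, adjusted p = 6.82e-06), and Sat1, which acetylates polyamines for export (2.11 ± 0.25, adjusted p = 5.56e-07). Efna1, an Eph receptor ligand, rose by 2.25 ± 0.49, the gap junction protein Gja1 by 1.73 ± 0.43 and the kinase Pim1 by 1.59 ± 0.26. Tnfaip6, a secreted hyaluronan-binding protein, read 2.51 to 2.87 at 1 h, 6.82 on 6 h replicate 1 and 3.79 to 4.28 on the other 6 h arrays. Falls of this kind were Hpgd, which degrades prostaglandins (-0.88 ± 0.23, adjusted p = 0.0201), the endothelial lipase Lipg (-1.12 ± 0.32) and the nuclear receptor Pparg (-0.85 ± 0.24).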
